A study of Mus musculus with 6 samples.

Results

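The 9 genes described here are BMP and GDF signals of the growth plate and the receptors that read them, taken from the deposited expression table by gene symbol: the ligands Bmp2, Bmp4, Bmp6, Bmp7 and Gdf5, the type I receptors Bmpr1a, Bmpr1b and Acvr1, and the type II receptor Bmpr2. All 9 had a row among the 14882 genes of the table. Expression was measured by mRNA sequencing of laser-microdissected hypertrophic zone from the proximal tibia of C57BL/6 mice aged 7 days, in 3 wild-type (WT) and 3 Adamts17-/- libraries from littermates. Adamts17 codes for a secreted enzyme of the ADAMTS metalloprotease family; the labels give neither the construction of the Adamts17-/- allele nor the number of mice behind a library. The comparison asks whether transcripts of the BMP system differ in this zone when Adamts17 is missing.

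BMPs and GDFs are secreted dimers of the TGF-beta superfamily. A dimer brings type I and type II serine/threonine kinase receptors together, the type II kinase activates the type I kinase, and the type I kinase phosphorylates SMAD1, SMAD5 and SMAD9, which enter the nucleus with SMAD4 and switch on targets such as the Id genes. In the growth plate this pathway promotes chondrocyte proliferation and maturation, and it is restrained outside the cell by binding proteins such as noggin and inside it by SMAD6 and SMAD7.

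Values were read as RPKM (reads scaled to transcript length and library size, with a further scaling of each library by the authors), so levels of different genes are set side by side on that reading of the unit. The RNA was amplified before sequencing, and how far scaling to length makes genes comparable was not tested. A read equivalent is the library's smallest repeated step in value times transcript length, multiplied by 20. It was taken as the weight of 1 read, and fractions of it occur. The libraries held from 595989 to 2688295 read equivalents, and between 391 and 3153 genes per library were listed at 0. Genes averaging 50 or more read equivalents numbered 4179, and 1734 (41.5%) of them still dropped to 1 or fewer in at least 1 library, so a value of 0 below is given as "listed at 0" and not as absence. All 8 cartilage and 8 hypertrophic chondrocyte markers were above 0 in every library, except 1 cartilage marker listed at 0 in Adamts17-/- replicate 3: Col10a1, the collagen of hypertrophic cartilage, ran from 1437 to 13347 RPKM and Col2a1 from 144 to 1212. Markers of other tissues were present too. Skeletal muscle markers had their highest mean log2(RPKM + 1), 9.01, in WT replicate 1 (1.83 to 5.35 elsewhere), and erythroid and myeloid markers theirs, 11.7 and 11.4, in Adamts17-/- replicate 2. Adamts17 itself gave 0.246, 0.0407 and 0.397 RPKM in WT replicates 1, 2 and 3 against 0.00850, 0.0870 and 0.0260 in Adamts17-/- replicates 1, 2 and 3, too low to check the labels.

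Levels of the 9 genes spread over much of the range of the table. The highest, Bmpr1a in WT replicate 3 and in Adamts17-/- replicate 3, stood at the 91.1 percentile of their libraries, and 24 of the 54 values lay above the 50th percentile of their library. Of the 54 values, 27 were under 1 RPKM, where 45.9% of all values in the table were, and they include 7 listed at 0 and 8 above 0 but below 1 read equivalent. Values under 10 read equivalents numbered 33 of 54, where 56.3% of all values in the table were as low. By the mean over the 6 libraries the order was Bmpr1a (18.1 RPKM), Bmpr2 (6.96), Bmp2 (5.50), Bmp4 (4.26), Acvr1 (4.04), Gdf5 (2.84), Bmpr1b (0.454), Bmp6 (0.439) and Bmp7 (0.243). Neighbours in this order were not told apart by the test used. Across the 8 neighbouring pairs, the exact two-sided sign-flip permutation test of the within-library log2 differences (n = 6 libraries) gave p from 0.25 to 0.9375, with an adjusted p of 0.9375 for every pair. The smallest p it allows is 0.03125. Bmpr1a was above Bmpr2 in 3 of 6 libraries, and Bmp2 above Bmp4 in 4 of 6.

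**Figure D1:**
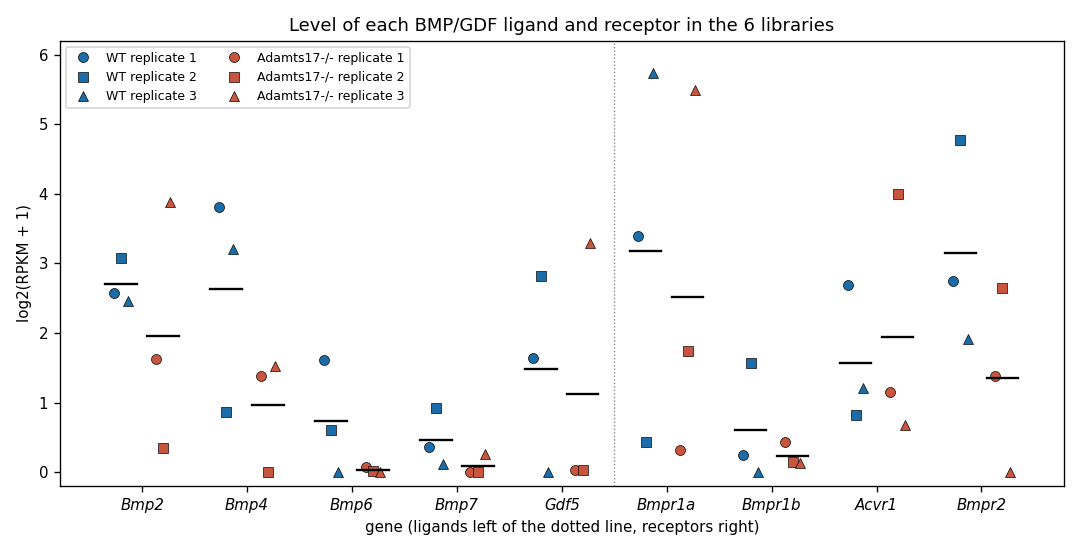
Level of each of the 9 genes in each library, as log2(RPKM + 1) on the vertical axis, with WT in blue, Adamts17-/- in red, marker shapes for the replicate number and a black bar for each group's mean (n = 3). The groups overlap for every gene, and Bmpr1a has its highest values, 5.73 and 5.49, in WT replicate 3 and Adamts17-/- replicate 3.

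Among the ligands, Bmp2 was the most evenly measured in WT. Bmp2 (Entrez gene 12156, chromosome 2, 133552159 to 133562896, plus strand) is a BMP made by maturing chondrocytes. It was at 4.95, 7.45 and 4.48 RPKM in WT replicates 1, 2 and 3 against 2.08, 0.271 and 13.8 in Adamts17-/- replicates 1, 2 and 3. The Adamts17-/- libraries lay on both sides of all 3 WT libraries. The means were 5.63 ± 1.60 in WT against 5.38 ± 7.34 in Adamts17-/- (SD, n = 3 each). The lowest value, in Adamts17-/- replicate 2, rested on 2.03 read equivalents.

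Bmp4 (Entrez gene 12159, chromosome 14, 46383520 to 46390599, minus strand) is the closest relative of Bmp2 and signals through the same receptors. Its RPKM was 13.1, 0.830 and 8.23 in WT against 1.60, 0 and 1.87 in Adamts17-/-. WT replicates 1 and 3 lay above all 3 Adamts17-/- libraries, and WT replicate 2 lay among them. Bmp4 gave 89.7 read equivalents in WT, 74.4 of them in WT replicate 1, against 5.65 in Adamts17-/-. WT replicate 1 is also the library with the highest muscle, perichondrial and endothelial marker levels, while WT replicate 3, the other high library, was the lowest in muscle markers (1.83) and low in the other lists (0.803 and 1.62, as mean log2(RPKM + 1)). The 3 libraries highest in Bmp4, WT replicates 1 and 3 and Adamts17-/- replicate 3, were the 3 highest in osteoclast markers, whose values stand with Bmpr1a below. The third place rests on few reads. Adamts17-/- replicate 3 stood at 1.87 RPKM on 2.38 read equivalents, and Adamts17-/- replicate 1 at 1.60 on 3.27. The latter was the lowest library in osteoclast markers (3.58). The lists set beside Bmp4 were picked from a larger number after their values were seen. With only 6 libraries, a list that shares a gene's highest libraries is easily found. The part of any of these cells in the Bmp4 level was not tested.

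The other ligands of the BMP branch were under 1 RPKM in every library, except Bmp6 in WT replicate 1. Bmp6 (Entrez gene 12161, chromosome 13, 38345716 to 38499728, plus strand), a BMP known from hypertrophic cartilage of the mouse, was at 2.04, 0.528 and 0 RPKM in WT against 0.0539, 0.00989 and 0 in Adamts17-/-. Its WT signal was 14.1 read equivalents in replicate 1 and 1 in replicate 2, and the Adamts17-/- libraries together gave 0.183. Bmp7 (Entrez gene 12162, chromosome 2, 172868012 to 172940321, minus strand), a BMP that favours type I receptor Acvr1, was at 0.286, 0.890 and 0.0841 in WT against 0, 0 and 0.195 in Adamts17-/-. Both genes had their 2 highest values in WT replicates 1 and 2, and both overlapped between groups in the lower values.

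Gdf5 (Entrez gene 14563, chromosome 2, 155941025 to 155945364, minus strand) is the joint-forming GDF, which favours Bmpr1b. Its level fell into libraries with signal and near-zero libraries: RPKM was 2.12, 6.05 and 0 in WT against 0.0210, 0.0217 and 8.80 in Adamts17-/-. The value in WT replicate 1 stood only at the 36.9 percentile of that library, close to Bmp6 there (36.2). The 3 libraries with signal, WT replicates 1 and 2 and Adamts17-/- replicate 3, held 14, 11 and 13 read equivalents, each a whole number within 0.01. No other library passed 0.106. These 3 libraries come from both groups.

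Taken as a sum, the 5 ligands gave 22.4, 15.7 and 12.8 RPKM in WT against 3.75, 0.303 and 24.7 in Adamts17-/-, so the Adamts17-/- libraries again lay on both sides of WT. The leading ligand was Bmp4 in WT replicate 1 (58.1% of the sum) and replicate 3 (64.3%), and Bmp2 in the other 4 libraries (47.3% to 89.6%). The second place went to Gdf5 in WT replicate 2 (38.4%) and in Adamts17-/- replicates 2 (7.18%) and 3 (35.7%). In Adamts17-/- replicate 2 the whole ligand sum rested on few reads, with 2.03 read equivalents for Bmp2 and at most 0.106 for each of the others.

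Among all 9 genes Bmpr1a, a type I receptor, had the widest range between libraries on the log2(RPKM + 1) scale, 5.41. The order depends on the added 1: as a plain ratio of the highest to the lowest RPKM, Bmpr2 (3724) was wider than Bmpr1a (212), and Bmp4 and Gdf5, each listed at 0 in 1 library, give no ratio. Bmpr1a (Entrez gene 12166, chromosome 14, 34411068 to 34502546, minus strand) is the main type I receptor for BMP2 and BMP4 in cartilage. Its RPKM was 9.52, 0.349 and 52.1 in WT against 0.246, 2.35 and 43.9 in Adamts17-/-. WT replicate 3 and Adamts17-/- replicate 3 stood far above the rest, on 244 and 154 read equivalents, while WT replicate 2 and Adamts17-/- replicate 1 had 1.501 and 1.386. The means were 20.6 ± 27.6 and 15.5 ± 24.6 (SD, n = 3 each). The residual spread of Bmpr1a within groups, 2.66 on the log2 scale, was wider than that of 90.6% of the 9128 genes tested, against 31.0% to 54.5% for the other members that passed the filter on low values described below.

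The 3 libraries highest in Bmpr1a were also those highest in osteoclast markers and lowest in erythroid markers. The mean log2(RPKM + 1) of the 5 osteoclast markers was 8.18 in WT replicate 1, 7.44 in WT replicate 3 and 7.02 in Adamts17-/- replicate 3, and from 3.58 to 4.85 in the other 3 libraries. That of the 8 erythroid markers was 4.38 to 4.99 in the former and 7.82 to 11.7 in the latter. Summed over the list, osteoclast markers ran from 254 to 4495 RPKM in WT and from 222 to 3655 in Adamts17-/-, with 5 of 5 above 0 in all libraries. Erythroid sums ran from 2891 to 61658 in WT and from 3273 to 228860 in Adamts17-/-, and 1 of the 8 markers was at 0 in Adamts17-/- replicate 3. As for Bmp4, these lists were picked after their values were seen. The part of these cells in the Bmpr1a level was not tested, and in bulk tissue fewer cells of a type and less RNA per cell cannot be told apart.

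Acvr1 (Entrez gene 11477, chromosome 2, 58446438 to 58566828, minus strand) is the type I receptor favoured by BMP6 and BMP7. It was at 5.43, 0.772 and 1.31 RPKM in WT against 1.22, 14.9 and 0.602 in Adamts17-/-. Adamts17-/- replicate 2 and WT replicate 1 were the high libraries, with 103 and 51.2 read equivalents against 1.27 to 4.12 in the other 4. The means were 2.51 ± 2.55 and 5.58 ± 8.09 (SD, n = 3 each). These are the 2 deepest libraries, and also the highest in the mean log2(RPKM + 1) of perichondrial and fibroblast markers. That mean was 5.36 in WT replicate 1 and 3.38 in Adamts17-/- replicate 2 against 0.229 to 1.09 elsewhere. Col3a1, Postn and Pdgfra had their 2 highest values there. In Adamts17-/- replicate 2, however, Dcn (12.8 RPKM) lay below Adamts17-/- replicate 1 (30.4), and Dpt (0.105) below WT replicate 3 (5.13). The endothelial means were likewise highest in WT replicate 1 and Adamts17-/- replicate 2, at 4.33 and 3.11 against 1.44 to 2.91. Pecam1 and Emcn had their 2 highest values in these libraries. Cdh5, Kdr, Tek and Flt1 did not, and Flt1 was highest in Adamts17-/- replicate 3 (57.3 RPKM). The myeloid and osteoblast means were highest in WT replicate 1 and Adamts17-/- replicate 2 but, like Acvr1, higher in Adamts17-/- replicate 2. Single osteoblast markers were not all so. Bglap (3.39 against 16.9 RPKM) and Bglap2 (1.61 against 22.7) were lower in Adamts17-/- replicate 2 than in WT replicate 1. Col1a1, Col1a2, Sp7 and Dmp1 were higher, though Sp7 was highest in WT replicate 2 (4.64). By sum, myeloid markers were higher in Adamts17-/- replicate 1 (2133 RPKM) than in WT replicate 1 (1776). Myeloid means were 11.4 and 7.47 against 0.850 to 5.52 elsewhere, and osteoblast means 4.88 and 4.35 against 1.88 to 4.02. Summed, the 6 myeloid markers in the table ran from 15.96 to 1776 RPKM in WT and from 85.5 to 52052 in Adamts17-/-, and the 6 osteoblast markers from 101.1 to 847 and from 85.8 to 5187, with 0 to 3 of each list at 0 per library. Summed, the 5 perichondrial and fibroblast markers ran from 4.75 to 300.2 RPKM in WT and from 1.08 to 89.4 in Adamts17-/-. Postn and Dcn were among those listed at 0, in WT replicate 3 (both), WT replicate 2 (Dcn), Adamts17-/- replicate 1 (Postn) and replicate 3 (Dcn). These lists too were picked after their values were seen. The part of these cells in the Acvr1 level was not tested.

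**Figure D2:**
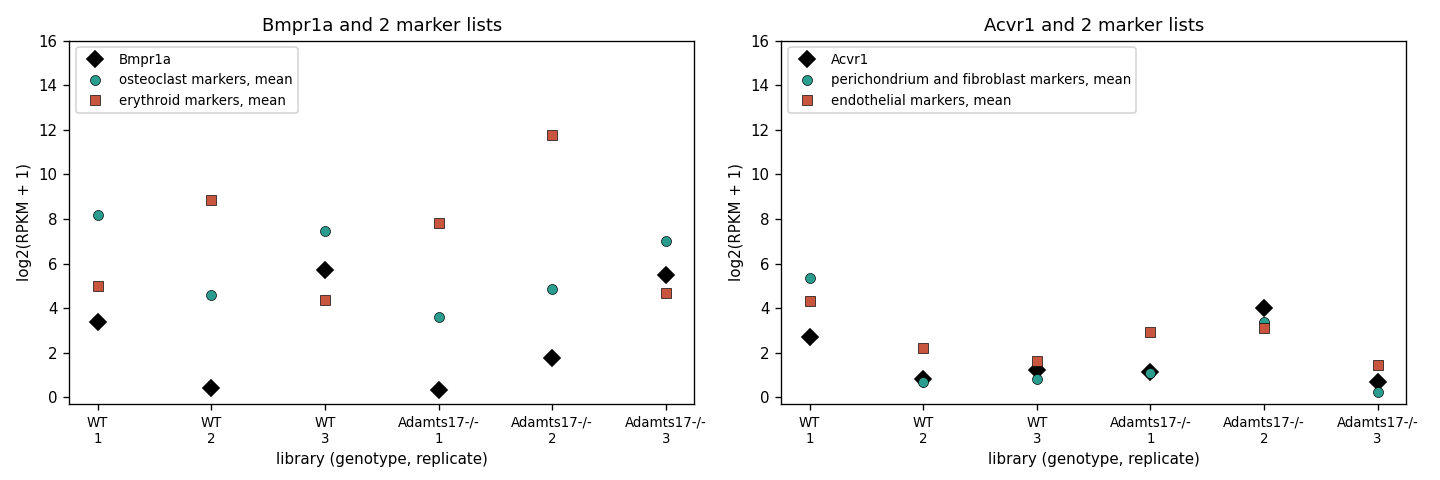
Bmpr1a (left) and Acvr1 (right) as black diamonds, beside the mean of 2 marker lists each, all as log2(RPKM + 1), in the 6 libraries. Bmpr1a is highest in the 3 libraries with osteoclast means of 7.02 to 8.18, and Acvr1 in the 2 libraries with perichondrial and fibroblast means of 3.38 and 5.36. Between these 2 libraries the order differs: Acvr1 is higher in Adamts17-/- replicate 2, and both marker means are higher in WT replicate 1.

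Bmpr1b (Entrez gene 12167, chromosome 3, 141837136 to 142169228, minus strand), the receptor of early cartilage condensations and of GDF5, was at 0.193, 1.97 and 0 RPKM in WT against 0.359, 0.108 and 0.0971 in Adamts17-/-. WT replicate 2 alone was above 1 RPKM, on 9 read equivalents. It was also the library in which Bmpr1b led the 3 type I receptors, with 63.7% of their sum. Bmpr1a led in WT replicates 1 and 3 and Adamts17-/- replicate 3 (62.8%, 97.5% and 98.4%), and Acvr1 in Adamts17-/- replicates 1 and 2 (66.8% and 85.9%). The summed type I receptor level was 15.1, 3.09 and 53.4 RPKM in WT against 1.82, 17.4 and 44.6 in Adamts17-/-. All 3 type I receptors thus led some library, and the sum overlapped between groups.

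**Figure D3:**
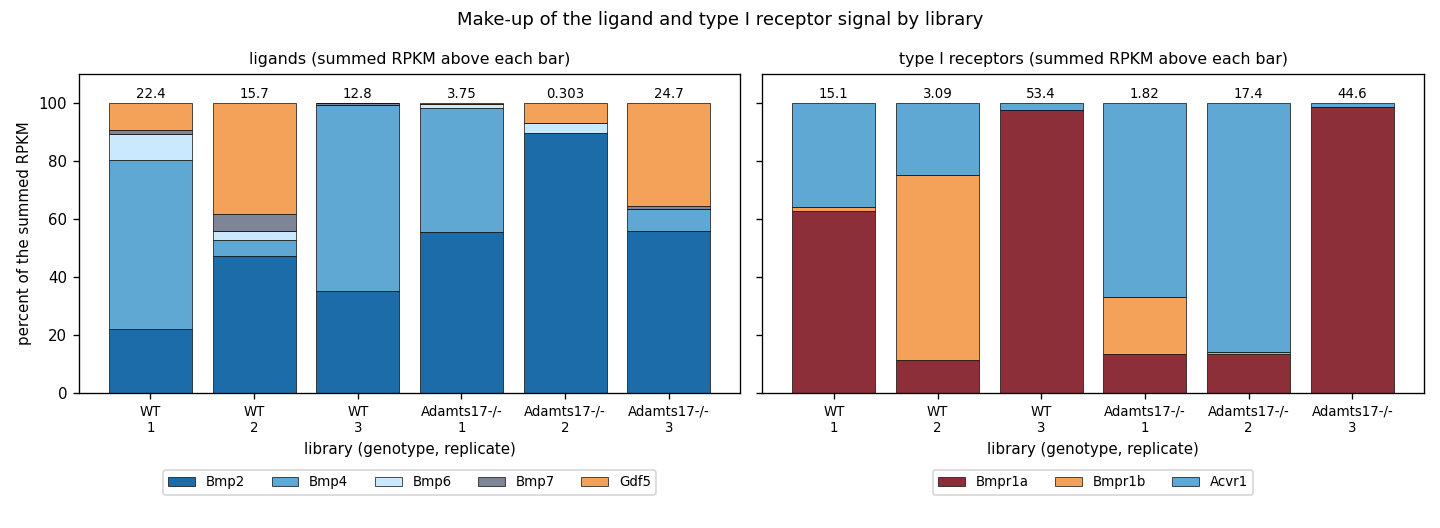
Share of each ligand (left) and each type I receptor (right) in the summed RPKM of its set, in percent, for each of the 6 libraries, with the sum in RPKM above each bar. Bmp4 or Bmp2 leads the ligands in every library, while the leading type I receptor is Bmpr1a in 3 libraries, Acvr1 in 2 and Bmpr1b in 1.

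Bmpr2 (Entrez gene 12168, chromosome 1, 59764279 to 59878081, plus strand) is the type II receptor that binds BMPs rather than activins. Its RPKM was 5.74, 26.3 and 2.77 in WT against 1.60, 5.29 and 0.00707 in Adamts17-/-. WT replicate 2 stood highest, on 229 read equivalents, and Adamts17-/- replicate 3 lowest, on 0.05, although that library had the second-highest Bmpr1a. The means were 11.6 ± 12.8 and 2.30 ± 2.71 (SD, n = 3 each). Adamts17-/- replicate 2 lay within the WT range and the other 2 Adamts17-/- libraries below it. Acvr2a, another type II receptor, was at 9.69, 18.7 and 25.6 in WT against 31.1, 3.28 and 16.7 in Adamts17-/-, above Bmpr2 in 4 of 6 libraries.

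No member passed the test between Adamts17-/- and WT. The test was limma on log2(RPKM + 1), two-sided, over the 9128 genes that reached 1 RPKM in 3 or more libraries, calling genes at a Benjamini-Hochberg adjusted p under 0.05. Over all genes tested it called 0 higher and 0 lower (0%), and 229 genes (2.51%) had an unadjusted p under 0.05. The members that passed the filter were 6 of 9, where 61.3% of all genes passed: Bmp2, Bmp4, Gdf5, Bmpr1a, Bmpr2 and Acvr1. Of these, 0 reached an unadjusted p under 0.05. Bmp4 reached an unadjusted limma p of 0.0449 (adjusted p = 0.547) when libraries were weighted by their spread around the fit, with a log2 fold change of -2.26. Of the 9 members 0 had groups without overlap, against 605 (6.63%) of the genes tested.

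The estimates were wide for every member. Bmpr2 had the lowest log2 fold change, -1.80 ± 1.56 (SE, n = 3 per group, limma adjusted p = 0.999), with a 95% interval from -4.99 to 1.39. Bmp4 followed at -1.66 ± 1.36 (interval -4.43 to 1.10), and Bmp2 was at -0.75 ± 1.58 (-3.96 to 2.46). Bmpr1a was at -0.67 ± 1.74 (-4.21 to 2.88) and Gdf5 at -0.37 ± 1.08 (-2.58 to 1.84). Acvr1 was the 1 member with an estimate above 0, at 0.37 ± 1.35 (-2.38 to 3.11). All 6 intervals span 0. For Bmpr1a the interval runs from 0.0539-fold to 7.35-fold on the RPKM + 1 scale, so neither a large loss nor a large gain is outside it.

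Bmp6, Bmp7 and Bmpr1b fell under the filter. In the fit of all 14882 genes they were at -0.71 ± 0.42 (interval -1.57 to 0.15), -0.38 ± 0.32 (-1.04 to 0.28) and -0.37 ± 0.45 (-1.29 to 0.56), each with a limma adjusted p of 1. This scale understates folds of genes so low. Bmp6 reached an unadjusted limma p of 0.0323 with libraries weighted (adjusted p = 0.867) and 0.0273 without WT replicate 3 (adjusted p = 0.997). Of the 6 members that passed the filter 5 had an estimate below 0, where 47.2% of the genes tested did. They were measured in the same 6 libraries and are not independent. Leaving out 1 library turned the sign for Bmp2 (0.052 without Adamts17-/- replicate 2), Gdf5 (0.18 without Adamts17-/- replicate 1 or 2 and 0.30 without WT replicate 2), Bmpr1a (0.43 without Adamts17-/- replicate 1 and 0.60 without WT replicate 3), Bmpr1b (0.11 without WT replicate 2) and Acvr1 (-0.66 without Adamts17-/- replicate 2, -0.0077 without WT replicate 2). Bmp4, Bmp6, Bmp7 and Bmpr2 stayed below 0 in all 6 such fits.

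**Figure D4:**
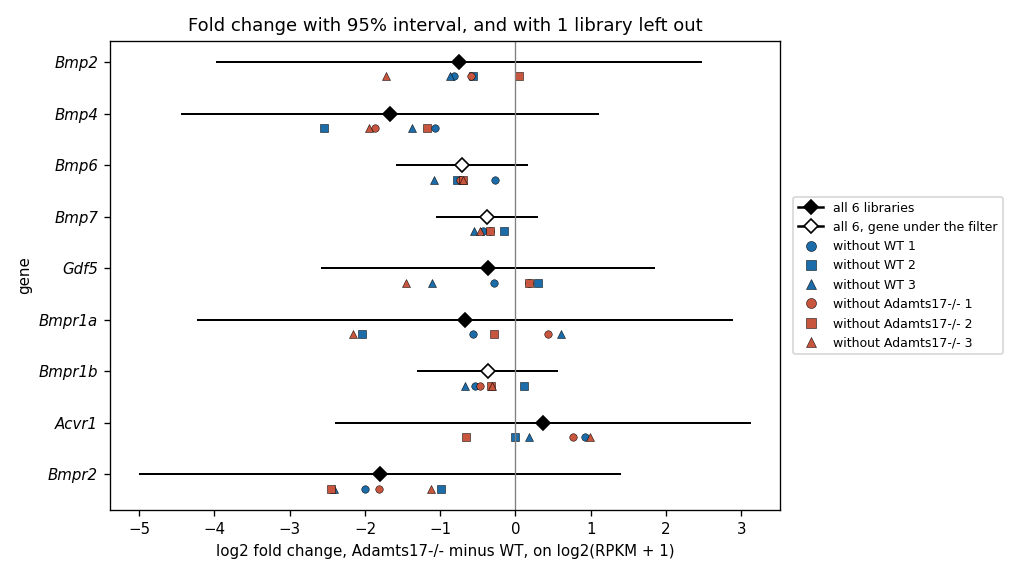
Log2 fold change of each gene, Adamts17-/- minus WT on log2(RPKM + 1), with its 95% interval (black line; open diamonds for the 3 genes under the filter) and the 6 estimates with 1 library left out (coloured markers below). Every interval crosses 0, and the markers of Bmpr1a spread between -2.15 (Adamts17-/- replicate 3 left out) and 0.60 (WT replicate 3 left out).

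Other genes of the pathway were described from 5 lists of 69 genes, of which 43 had a row in the table and 27 passed the filter. None of the 27 was called, 11 had an estimate above 0 and 16 below, and 3 had groups without overlap (Eng, Tgfbr3 and Htra1), where 6.63% of all genes tested did. An unadjusted p under 0.05 was reached by 3 (Eng, Htra1 and Id3), against 2.51% of all genes tested. Their median log2 fold change was -0.40, against 0.077 over all genes tested. Each limma adjusted p below was 0.999, and the values are log2 fold changes ± SE (n = 3 per group).

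Receptors and co-receptors other than the members had 1 estimate above 0 and 3 below among 4 tested. Eng, the endothelial co-receptor endoglin, was at -2.69 ± 1.10, with 8.54, 1.07 and 15.04 RPKM in WT against 0, 0.0334 and 0.137 in Adamts17-/-. Tgfbr3, the betaglycan co-receptor, was at -1.49 ± 1.58, and Acvrl1, the endothelial type I receptor, at 0.28 ± 1.04. All WT libraries lay above all Adamts17-/- libraries for Eng and Tgfbr3. For the 6 endothelial markers the sums overlapped, with 17.0 to 165 RPKM in WT against 42.7 to 80.4 in Adamts17-/-. Pecam1 was at 0 in Adamts17-/- replicate 3, Emcn in WT replicate 3 and Tek in WT replicate 2. The part of endothelial cells in the Eng difference was not tested.

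Extracellular antagonists and modulators had 2 estimates above 0 and 4 below among 6 tested. Htra1, a secreted serine protease, was at -3.59 ± 1.53, with 43.6, 1.87 and 24.6 RPKM in WT against 0, 0.0130 and 0.854 in Adamts17-/-. Fstl1, a secreted follistatin-like glycoprotein, was at -1.10 ± 1.19. Crim1, a transmembrane BMP-binding protein, was at 1.36 ± 1.60, and Bmp1, which despite its name is a procollagen protease, at 0.060 ± 1.37. Nog, the antagonist noggin, was under the filter, at 0.0910, 1.52 and 0.0608 RPKM in WT against 0.690, 0.0579 and 0 in Adamts17-/-. Among the other ligands Bmp3 alone passed the filter (-0.91 ± 1.57).

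Inside the cell, SMADs and their ubiquitin ligases had 4 estimates above 0 and 2 below among 6 tested. Smad4, the common partner of receptor SMADs, was at -1.84 ± 1.43, and Smad7, an inhibitory SMAD, at -0.83 ± 1.61. Smad5, a receptor SMAD, was at 0.44 ± 1.44 and Smurf2, a ubiquitin ligase of receptors and SMADs, at 0.41 ± 1.41. Target genes had 4 above 0 and 6 below among 10 tested. Id3, a BMP-induced inhibitor of DNA binding, had the highest estimate of the 27, 3.75 ± 1.502, with 72.3, 4.01 and 0 RPKM in WT against 79.7, 263 and 41.1 in Adamts17-/-. WT replicate 1 lay among the Adamts17-/- libraries, and the estimate was 2.33 without WT replicate 3 and 5.43 without WT replicate 1. Hey1, a transcriptional repressor, was at 1.59 ± 1.63. Atoh8, a helix-loop-helix factor, was at -1.88 ± 1.67 and Tob1, an antiproliferative protein, at -1.10 ± 1.48. Leaving out 1 library turned the sign of 12 of the 27 genes. Among them were all 4 SMAD and ligase genes with an estimate above 0 and the 1 such receptor, Acvrl1 (-0.49 without Adamts17-/- replicate 2). The median of the SMAD and ligase list went from 0.25 to -0.83 with the filter raised to 5 RPKM and to -0.68 without Adamts17-/- replicate 3. It was -0.25 without WT replicate 2 and -0.56 with libraries weighted. The target gene median went from -0.37 to 0.20 without WT replicate 1, 0.19 without Adamts17-/- replicate 3 and 0.057 with libraries weighted. That of the antagonists and modulators went from -0.46 to 0.10 with libraries weighted.

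**Figure D5:**
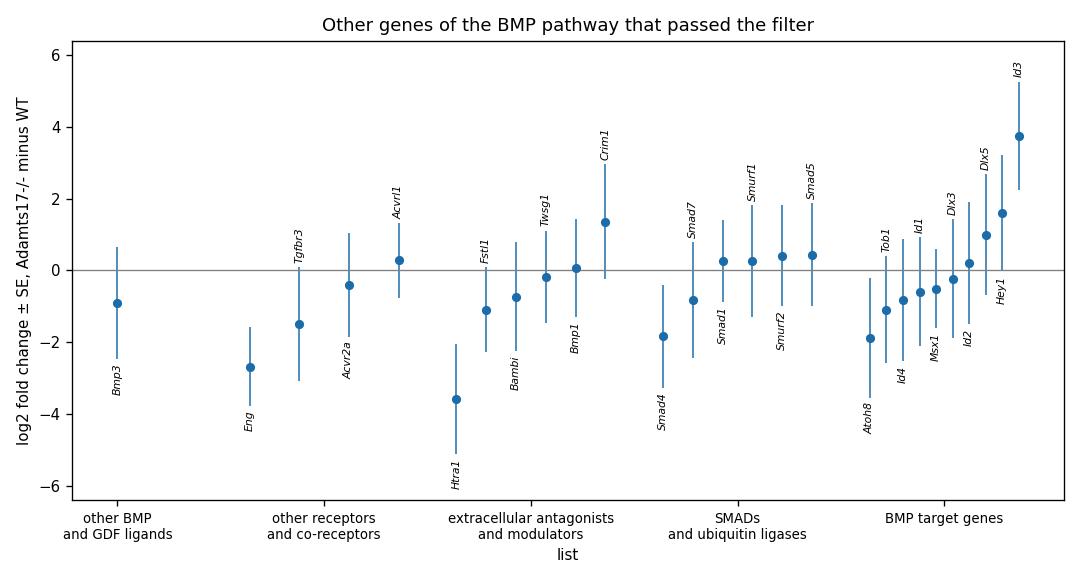
Log2 fold change ± SE (Adamts17-/- minus WT) of the 27 other pathway genes that passed the filter, in their 5 lists. Estimates run from -3.59 for Htra1 to 3.75 for Id3, and none passed the adjusted threshold.

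For each member, the gene with the nearest profile over the 6 libraries was found among all genes tested, by the mean absolute difference of log2(RPKM + 1) after centring each gene on its mean. For Bmpr1a it was Atp11a (0.271, against a median of 2.28 over genes), which had 13.2, 0.278 and 40.8 RPKM in WT against 0.450, 1.37 and 45.6 in Adamts17-/-. Only 6 genes lay within 0.5 of Bmpr1a. The nearest were Cwc27 for Bmpr2 (0.351), Ralgps2 for Bmp2 (0.193), Dnajb11 for Bmp4 (0.277), Pofut2 for Acvr1 (0.232) and Olfr1274-ps for Gdf5 (0.119). For the genes under the filter, whose mean absolute deviation from their own mean was 0.243 to 0.483 against 0.895 to 2.02 for the other members, they were Wdr72 for Bmpr1b (0.0843), Elovl6 for Bmp6 (0.181) and Chgb for Bmp7 (0.125). No member was the nearest gene of another. With 9128 genes searched this says little about the members, and those under the filter were not among the genes searched.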

How the data were processed

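Per the labels' protocols, the hypertrophic zone was taken from frozen sections by laser microdissection, its RNA (PicoPure) was amplified linearly (RiboAmp HS PLUS), and a TruSeq RNA kit gave the libraries. The authors deposited 1 table of 14882 genes, read here as RPKM values that they scaled by TMM (a scaling between libraries), as the table's name says. No source used here names the unit. A unit scaled to transcript length was inferred because value times transcript length falls on multiples and fractions of 1 step per library. This does not tell RPKM from other units scaled to length, so RPKM is a reading. Aligner and genome build: not given in the sources used here. Coordinates are the table's own; all 9 starts lie within 7 bases of RefSeq on GRCm38.p6, and ends differ by up to 790. Of values between 1 and 20 read equivalents, 24.2% to 34.8% were whole within 0.01, so no count model was fitted.

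Sample titles gave the groups and replicate numbers, and sample descriptions the columns. Nothing beyond the word littermates says that libraries came from separate animals, so p-values cover only the spread among these libraries, which may be technical. The fit was limma 3.58.1 in R 4.3.3 (empirical Bayes with an intensity trend) on log2(RPKM + 1), tested on simulated data. Tables and plots used Python 3.11.15, numpy 2.4.6, pandas 2.3.3 and matplotlib 3.10.9. Named genes were Adamts17, the 9 members, up to 2 genes per direction with the largest fold change in each pathway list, and the nearest profile of each member; Acvr2a, Nog, the single marker genes and the genes in the closing section were added after their values were seen. Members, lists and tests were chosen with earlier results of these data known. Which marker lists are set beside a member was decided after their values were seen. Alternatives changed the pseudocount, the filter, the scaling between libraries, the intensity trend, library weights, a replicate block and the libraries included.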

Additional observations from a re-analysis of the deposited data

How the results depend on the processing

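No member was called in any of 134 values under 16 alternatives, 3 of them (Bmp4 once and Bmp6 in 2) had an unadjusted p under 0.05, and 13, in 5 members, turned sign. Acvr1 turned with library weights (-0.82), Gdf5 with quantile normalization (0.16), and both (-0.10 and 0.25) when the muscle-rich WT replicate 1 and the blood-rich Adamts17-/- replicate 2 were left out together. With 1 library left out the log2 fold change ran from -1.72 to 0.052 for Bmp2, -1.46 to 0.30 for Gdf5, -2.15 to 0.60 for Bmpr1a, -0.67 to 0.11 for Bmpr1b and -0.66 to 0.997 for Acvr1. The same fits ran from -2.54 to -1.07 for Bmp4, -1.08 to -0.28 for Bmp6, -0.55 to -0.15 for Bmp7 and -2.45 to -0.98 for Bmpr2. A pseudocount of 0.1 moved Bmpr2 to -2.94, Bmp4 to -2.75, Bmp6 to -2.11 and Bmp7 to -1.52. Upper-quartile scaling moved the median of all genes from 0.077 to -0.12, and Acvr1 to 0.13.

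Over all genes, 1 was called with library weights, 0 to 5 with 1 library left out (5 without Adamts17-/- replicate 3), and 0 in the other alternatives. Genes at an unadjusted p under 0.05 numbered 799 with library weights, 135 of 5526 tested with a minimum value of 5, and 192 to 347 with 1 library left out. Genes without overlap numbered 1039 of 14882 (6.98%) with no filter and 350 of 5526 (6.33%) with a minimum value of 5, against 6.63% in the main fit. They numbered 1207 to 1724 (13.2% to 18.9%) with 1 library left out and 2415 (26.5%) without both libraries. Smaller groups separate more easily whatever the genotype, so these last shares cannot be set against the main one. Of the 9 ranks by level, 5 were kept with quantile normalization and 3 to 7 with 1 library left out. A replicate block by title number called 0 genes, with 171 at an unadjusted p under 0.05. Deviations of libraries with the same number correlated at -0.0075, -0.35 and -0.10, so pairing was not seen. Depth limits the members much as it does the table as a whole. Of their 54 values 33 rested on fewer than 10 read equivalents, where 56.3% of all values in the table did.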

Other observations

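Several other genes of the BMP system were carried by 1 or 2 libraries. They were chosen after their values were seen, lie under the filter and were not tested further. Hfe2, the BMP co-receptor hemojuvelin of skeletal muscle and liver, was at 32.6 RPKM in WT replicate 1, the library with the highest muscle marker level, at 0.352 in WT replicate 3 and listed at 0 in the other 4. Gdf10, a distant GDF ligand, was at 78.3 in WT replicate 3 and at most 1.95 elsewhere. Bmp8a was at 27.05 in WT replicate 2 and at most 1.22 elsewhere. Sost, the osteocyte gene for sclerostin, was at 9.90 in WT replicate 2 and 4.63 in Adamts17-/- replicate 3, and at most 0.0337 elsewhere.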
